A study of Mus musculus with 15 samples.

Results

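A set of 9 genes of neurotrophic signaling was followed through 15 mouse tumors, 1 library per mouse. They were the ligand gene *Bdnf*, the neurotrophin receptor genes *Ntrk2*, *Ntrk3* and *Ngfr*, the receptor kinase gene *Ret* with its co-receptor genes *Gfra1*, *Gfra2* and *Gfra3*, and the receptor kinase gene *Alk*. They were chosen by name, as genes known for their bearing on prognosis in neuroblastoma. Earlier results of these data were known when they were chosen. All 9 members were found among the 23329 genes in the tables of read counts, and all 9 were among the 14880 genes that passed the filter of over 1 CPM (read counts scaled to the size of the library) in at least 3 tumors. The groups held 4 *EμMyc* and 3 *EμMyc/Casp2-/-* lymphomas taken from cervical lymph nodes of C57BL/6 mice, beside 8 neuroblastomas of mixed Sv129/C57BL6 mice, 4 of them *Th-MYCN* and 4 *Th-MYCN/Casp2-/-*. In *EμMyc* mice the immunoglobulin heavy chain enhancer drives *Myc* in the B lineage, while human *MYCN* is under the promoter of tyrosine hydroxylase, active in sympathetic neuroblasts, in *Th-MYCN* mice. The *Casp2-/-* tumors of both kinds come from mice with germline loss of caspase-2, a protease with roles in cell death and tumor suppression, and no other agent was given. The neuroblastomas were paraspinal thoracic tumors picked for having few or no blood vessels. Neuroblastomas with caspase-2 had arisen at 10 to 21 weeks of age, those without it at 15 to 24 weeks. Lymphomas with caspase-2 had arisen at 13 to 19 weeks, those without it at 8 to 12 weeks. The lymphoma ranges do not meet, which leaves genotype tied to onset age in that tumor type. Strain, site and tumor type go together over all the groups and cannot be told apart.

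Neurotrophins are secreted growth factors of neurons. BDNF binds the kinase TrkB, made from *Ntrk2*, NT-3 binds TrkC from *Ntrk3*, and both ligands also bind the p75 receptor from *Ngfr*. Ligands of the GDNF family bind a GFRα co-receptor on the cell surface, and the pair then activates RET. ALK is a receptor kinase of the developing nervous system, and activating mutations of it occur in human neuroblastoma. In that tumor TrkC is known as a marker of favorable disease and TrkB with BDNF as a pair of aggressive disease. All of these kinases signal through adaptors to the RAS and MAP kinase cascade, whose output includes the Etv transcription factors and the Sprouty, Spred and Dusp proteins that damp it.

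The libraries held 4940464 to 17638029 reads on genes in the strand column used, the smallest being *EμMyc/Casp2-/-* tumor 1, and 3 reads, taken as the detection floor, were worth 0.170 to 0.607 CPM. Numbers of reads below, also those of 0, are of the strand column used. It held 48.8% to 49.3% of the reads of both strand columns together. Tumors are numbered within each group. Intervals and floors from reads cover counting error only. Of *Casp2* itself, *EμMyc* tumors had 125 to 203 CPM and *EμMyc/Casp2-/-* tumors 51.9 to 76.1 CPM, a fall past the test (log2 fold change -1.35 ± 0.27 SE, LRT FDR 0.000399, QLF FDR 0.0536). *Th-MYCN* tumors had 76.0 to 125 CPM and *Th-MYCN/Casp2-/-* tumors 39.6 to 80.1 CPM, which overlapped and missed the threshold (log2 fold change -0.79 ± 0.25 SE, LRT FDR 0.101). The reads were counted over the whole gene, so those that remained do not show whether the deleted part was read. The tumor types bore their markers. The summed level of 10 sympathetic neuroblast genes was 3297 to 5815 CPM in the neuroblastomas and 8.58 to 28.5 CPM in the lymphomas, and that of 8 B cell genes was 11.4 to 27.1 CPM and 2111 to 4975 CPM.

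The 9 genes lie on different chromosomes. In GRCm38 *Bdnf* is at chr2:109674700-109727007 on the plus strand, *Ntrk2* at chr13:58806569-59133970 on the plus strand, *Ntrk3* at chr7:78175959-78738012 on the minus strand and *Ngfr* at chr11:95568818-95587735 on the minus strand. *Ret* is at chr6:118151745-118197718 on the minus strand, *Alk* at chr17:71868972-72604627 on the minus strand, *Gfra1* at chr19:58235604-58455909 on the minus strand and *Gfra2* at chr14:70890120-70979838 on the plus strand. The reads of each member split almost evenly between the strands (48.2% to 50.7% in the column used), so the libraries carried no strand information. Another gene shares exonic bases with *Bdnf* (Gm45346 on the opposite strand, 14.4% of the exonic bases of *Bdnf*) and with *Gfra1* (Gm16277, also on the opposite strand, 7.60%), and reads there cannot be assigned to either of the pair.

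Of the members, 5 had entries in the RefSeq table of promoters (GRCm38.p6), with 7 start sites for *Bdnf* and 1 each for *Ntrk2*, *Ngfr*, *Alk* and *Gfra1*, and *Ntrk3*, *Ret*, *Gfra2* and *Gfra3* were not matched. The 250 bases upstream of each start were searched on both strands for the core Myc E-box CACGTG, since both models carry a Myc family transgene, and for the GC box GGGCGG. The E-box was in 0 of the 11 windows of the members and in 6.02% of all 32851 windows of that length. The GC box was in 4 of the 11 windows, those of *Ngfr*, *Alk* and 2 of *Bdnf*, and in 32.7% of all windows. The windows of the ligand and receptor pair and of *Alk* are shown, 5′ to 3′ on the strand of the gene, with each GC box in capitals on whichever strand it lies. For *Bdnf*, whose starts the gene-level counts do not separate, they are the start furthest upstream (chr2:109674450-109674699) and the first with a GC box (chr2:109676782-109677031). That of *Ntrk2* is chr13:58806319-58806568 and that of *Alk* is chr17:72604308-72604557.
*Bdnf*, first start: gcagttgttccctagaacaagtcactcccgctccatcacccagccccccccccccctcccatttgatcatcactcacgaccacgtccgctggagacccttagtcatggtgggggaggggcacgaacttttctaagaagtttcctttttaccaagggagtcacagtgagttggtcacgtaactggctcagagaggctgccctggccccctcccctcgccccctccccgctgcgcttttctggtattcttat
*Bdnf*, second start: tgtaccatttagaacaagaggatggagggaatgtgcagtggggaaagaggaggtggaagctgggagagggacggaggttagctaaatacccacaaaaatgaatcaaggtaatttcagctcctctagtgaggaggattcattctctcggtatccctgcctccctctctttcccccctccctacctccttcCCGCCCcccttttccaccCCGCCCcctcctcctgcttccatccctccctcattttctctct
*Ntrk2*: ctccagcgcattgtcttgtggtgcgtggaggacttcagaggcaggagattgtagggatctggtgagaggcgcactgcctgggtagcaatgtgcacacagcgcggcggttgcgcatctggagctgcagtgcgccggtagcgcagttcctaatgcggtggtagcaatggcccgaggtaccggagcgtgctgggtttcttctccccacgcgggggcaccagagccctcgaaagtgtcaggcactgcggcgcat
*Alk*: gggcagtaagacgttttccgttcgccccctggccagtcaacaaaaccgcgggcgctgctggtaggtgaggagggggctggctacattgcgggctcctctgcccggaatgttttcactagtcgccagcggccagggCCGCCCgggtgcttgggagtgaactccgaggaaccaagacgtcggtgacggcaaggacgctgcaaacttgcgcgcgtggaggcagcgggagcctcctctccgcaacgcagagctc
Neither window of *Bdnf* nor that of *Ntrk2* holds the E-box, and a match or its lack in these letters is a description of the sequence only.

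Per kilobase of exon, the 8 neuroblastomas had most RNA of *Gfra3*, the co-receptor of the ligand artemin, with a median of 91.8 CPM per kb (23.4 to 162), above *Alk* in 8 of 8 tumors. *Alk* followed with a median of 13.8 CPM per kb, *Bdnf* with 8.32, *Ret* with 6.39 and *Gfra2*, the co-receptor of neurturin, with 4.07. The ranges of these 4 overlapped from each gene to the next, so their order is not firm. *Ntrk2* had a median of 1.08 CPM per kb, *Gfra1*, the co-receptor of GDNF, 0.405, *Ntrk3* 0.330 and *Ngfr* 0.303, again with overlapping ranges between neighbors. The exons of *Ntrk2* and *Ntrk3* add up to 19292 and 30170 bases over all transcripts of the annotation, against 1997 for *Gfra3*, which lowers their values on this scale where a tumor used shorter transcripts. In the 7 lymphomas the order was another one, with *Gfra2* (median 3.09 CPM per kb), *Ngfr* (1.32) and *Gfra1* (0.920) first and *Bdnf* and *Alk* last, both at a median of 0.

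**Figure D1:**
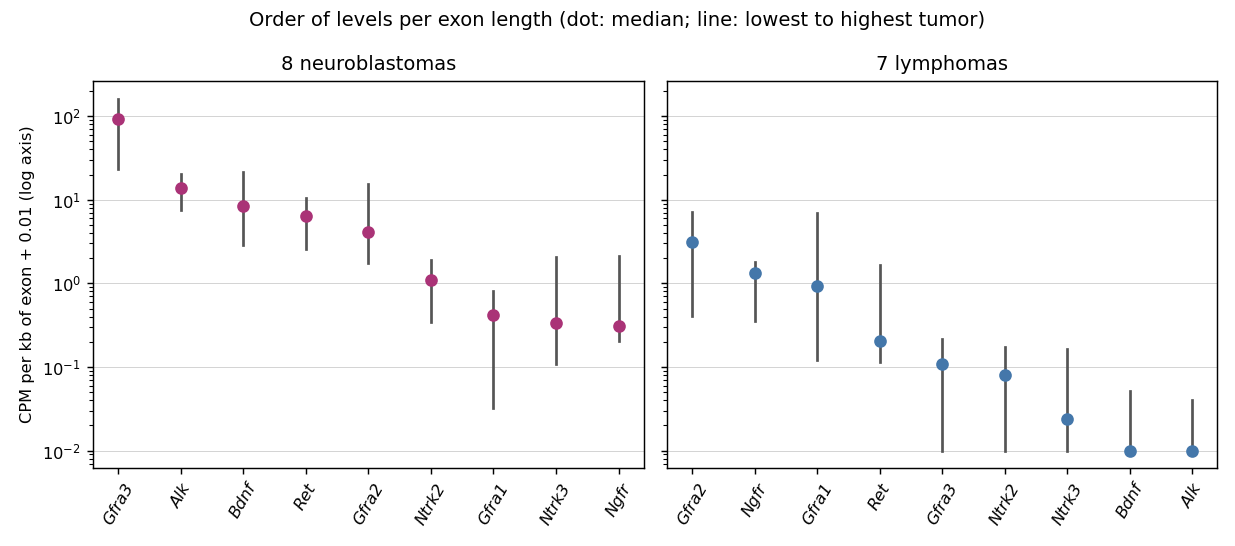
Levels of the 9 genes in CPM per kilobase of exon on a log axis, after adding 0.01, in 8 neuroblastomas and 7 lymphomas. Dots are medians and lines run from the lowest to the highest tumor. *Gfra3* stands above every other gene in the medians of the neuroblastomas, and *Bdnf* and *Alk* are at a median of 0 in the lymphomas.

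The first question was whether loss of caspase-2 went with a change of these genes in the neuroblastomas. A DEG was a gene with a Benjamini-Hochberg FDR under 0.05 over all tested genes in the likelihood ratio test (LRT) of edgeR, together with a change of over 2-fold. By this rule 1 of 9 members, *Bdnf*, rose in *Th-MYCN/Casp2-/-* tumors and 0 fell, against 0.813% of all genes tested that were called. By edgeR's stricter quasi-likelihood test (QLF) 0 of 9 were called. At an unadjusted p under 0.05 by the LRT there were 3 members, *Bdnf*, *Ntrk3* and *Gfra2*, and 1157 of all 14880 genes. The median log2 fold change of the members was -0.14, with -0.0024 over all genes.

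*Bdnf* had 44.6, 35.7, 44.1 and 18.0 CPM in *Th-MYCN* tumors 1 to 4 and 77.1, 58.9, 134.5 and 94.0 CPM in *Th-MYCN/Casp2-/-* tumors 1 to 4. Every tumor without caspase-2 lay above every tumor with it, as for 6.62% of all genes whose groups did not overlap in this comparison. The mean rose from 35.6 ± 12.4 to 91.1 ± 32.3 CPM (SD, n = 4 and 4). On the log2 scale this was 1.36 (95% interval 0.64 to 2.08, LRT FDR 0.0402, QLF FDR 0.278). The direction was the same when any 1 of the 8 tumors was left out, at 1.12 to 1.53, but the call remained only without *Th-MYCN* tumor 1 or without *Th-MYCN/Casp2-/-* tumor 2, and it was lost without each of the other 6 (LRT FDR 0.0598 to 0.227). It was also lost with reads of either strand (LRT FDR 0.121) and with sex as a covariate (LRT FDR 0.0907).

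*Ntrk2*, whose product is the receptor of BDNF, had 6.47, 11.2, 21.3 and 13.0 CPM in *Th-MYCN* tumors and 20.3, 26.8, 36.2 and 23.4 CPM in *Th-MYCN/Casp2-/-* tumors. The groups overlapped through a single tumor, *Th-MYCN* tumor 3, and the log2 fold change of 1.04 (95% interval -0.22 to 2.29) missed the threshold (LRT FDR 0.836). The other 3 *Th-MYCN* tumors lay below every *Th-MYCN/Casp2-/-* tumor.

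*Ntrk3* had 62.9, 11.3, 11.3 and 9.32 CPM in *Th-MYCN* tumors and 10.6, 2.95, 2.99 and 3.49 CPM in *Th-MYCN/Casp2-/-* tumors. Here 3 of the 4 tumors without caspase-2 lay below every tumor with it, while the fourth, tumor 1, fell among them. The log2 fold change was -2.24 (95% interval -4.08 to -0.40, LRT FDR 0.459), and -1.07 without *Th-MYCN* tumor 1. In that tumor the pleiotrophin gene *Ptn* was also at 55.5 CPM (5.49 to 22.8 in the other 7 neuroblastomas) and the secreted neuropeptide precursor gene *Vgf* at 1.83 CPM (24.2 to 110 in the others). Both of these genes were singled out after their values were seen.

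*Ngfr* had 1.04, 2.47, 7.32 and 1.05 CPM in *Th-MYCN* and 0.936, 0.835, 0.674 and 3.57 CPM in *Th-MYCN/Casp2-/-* tumors. It rested on 7 to 127 reads per neuroblastoma, and its log2 fold change of -0.98 had a 95% interval from -2.43 to 0.47 (LRT FDR 0.939). *Ret* had 47.4, 65.0, 71.4 and 28.9 CPM in *Th-MYCN* and 17.2, 43.6, 39.2 and 42.8 CPM in *Th-MYCN/Casp2-/-* tumors. The groups overlapped, with a log2 fold change of -0.57 (95% interval -1.60 to 0.45, LRT FDR 0.986).

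Of the co-receptor genes, *Gfra2* had 14.8, 11.5, 6.23 and 13.6 CPM in *Th-MYCN* and 21.6, 54.6, 35.7 and 14.0 CPM in *Th-MYCN/Casp2-/-* tumors. It was higher by 1.45 on the log2 scale (95% interval 0.21 to 2.70), with an overlap through *Th-MYCN/Casp2-/-* tumor 4 and an LRT FDR of 0.485. When the 8 neuroblastomas were fitted alone, *Gfra2* passed the threshold (LRT FDR 0.0449). *Gfra3* spread widely in both groups, with 290, 323, 99.3 and 192 CPM against 46.7, 152, 174 and 314 CPM (log2 fold change -0.40, 95% interval -1.40 to 0.60). *Gfra1* was low in both, at 0.123 to 4.43 and 1.62 to 3.21 CPM. *Alk* had 59.3, 129, 140 and 112 CPM in *Th-MYCN* and 158, 80.2, 58.8 and 102 CPM in *Th-MYCN/Casp2-/-* tumors. The 95% interval of its log2 fold change of -0.14 ran from -0.86 to 0.58, the narrowest of the 8 members that were not called.

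**Figure D2:**
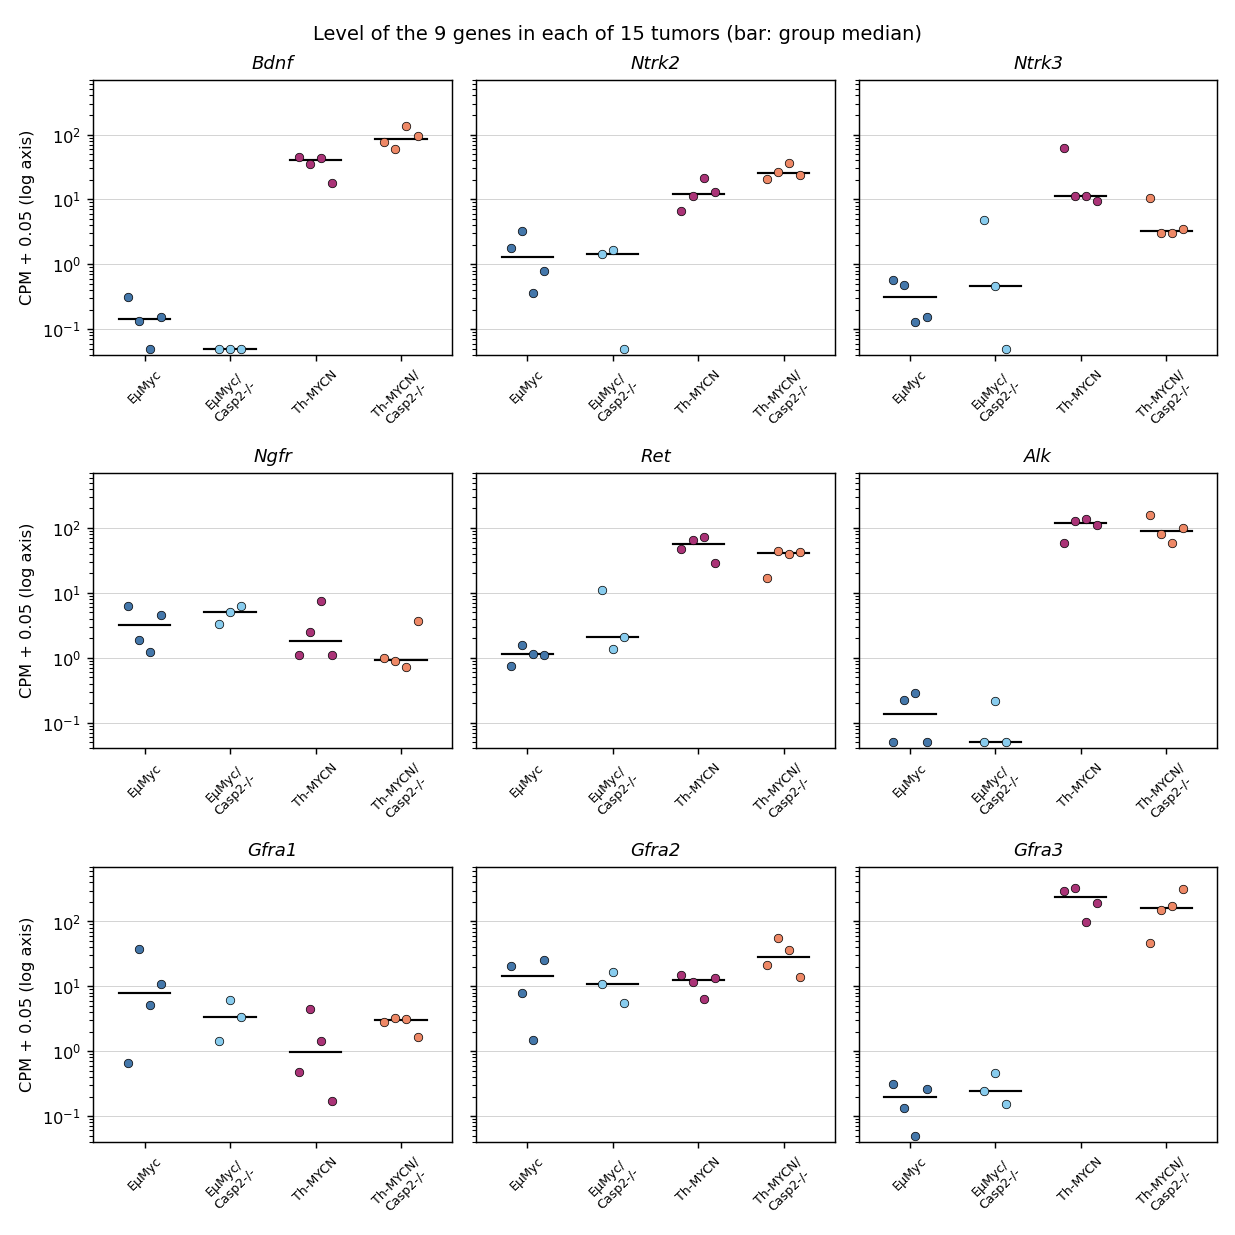
Level of each of the 9 genes in each of 15 tumors, in TMM-scaled CPM on a log axis after adding 0.05, with points left to right in replicate order and a bar at the group median. *Bdnf* is higher in every *Th-MYCN/Casp2-/-* tumor than in any *Th-MYCN* tumor, and the 8 neuroblastomas lie above the 7 lymphomas for *Bdnf*, *Ntrk2*, *Ret*, *Alk* and *Gfra3*.

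**Figure D3:**
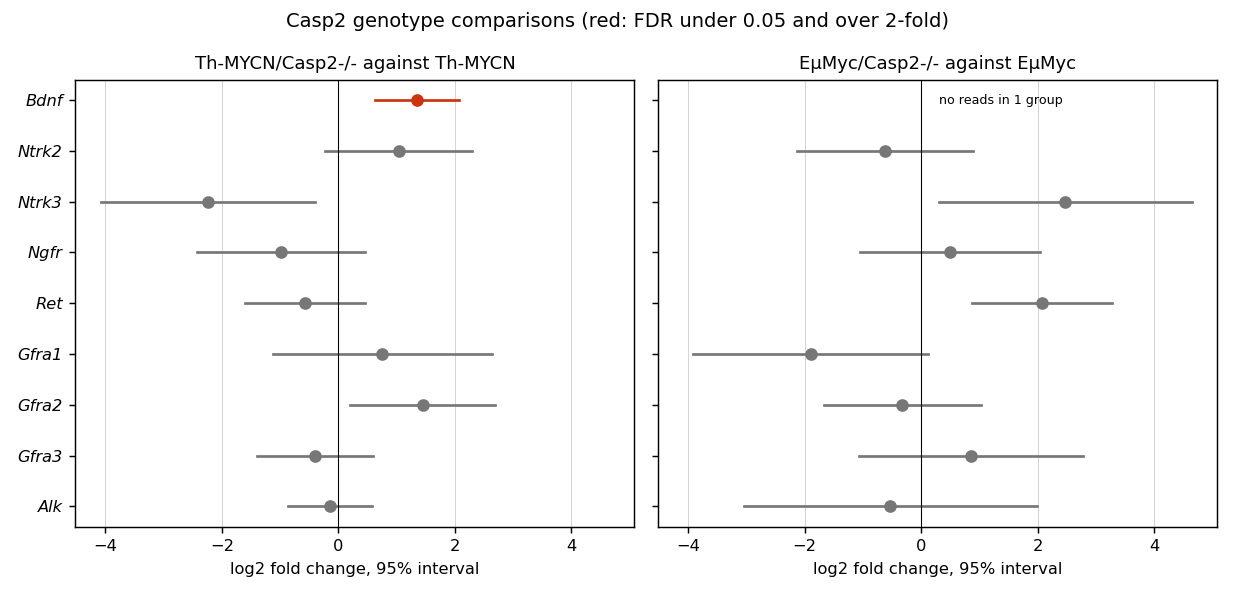
Log2 fold changes of the 9 genes with 95% intervals between *Casp2-/-* and other tumors, in the neuroblastomas (left) and lymphomas (right). *Bdnf* in the neuroblastomas, in red, is the one DEG, and *Bdnf* had no reads in *EμMyc/Casp2-/-* tumors in the strand column used.

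Markers of other cell types were compared between the same groups. In bulk tumors, fewer cells of a type and less RNA per cell cannot be told apart. The summed level of 8 Schwann cell genes was 86.2 to 182 CPM in *Th-MYCN* and 137 to 219 CPM in *Th-MYCN/Casp2-/-* tumors, with 3 of the 8 genes above in every tumor without caspase-2 and 0 called. That of 6 endothelial genes was 64.6 to 96.1 CPM and 29.6 to 48.7 CPM. Of these 6 genes 3 lay below in every tumor without caspase-2. By the LRT 2 were called down and 0 up, against 0.813% of all genes called in either direction, and by QLF 0 were called. The summed level of 8 sensory neuron genes was 14.1 to 33.3 and 35.1 to 51.6 CPM. Nearly all of it came from *P2rx3*, while *Mrgprd* had no reads in any neuroblastoma. Their part in the levels of *Bdnf*, *Ntrk2* and *Gfra2* was not tested. The sum of the 10 sympathetic neuroblast genes was 4555 to 5815 and 3297 to 4391 CPM, without overlap. Of these 10 genes 1 lay above and 2 below in every tumor without caspase-2, and 0 were called by either test. Their median log2 fold change was -0.15. Groups did not overlap for 6.62% of all genes in this comparison.

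Among 47 other genes of these pathways in the tables, 37 were tested, and 0 were called in the neuroblastomas by either test (3 at an unadjusted p under 0.05 by the LRT). Among them were *Ltk*, a receptor kinase related to *Alk* (log2 fold change 1.73, LRT FDR 0.402), and the transcription factor gene *Etv1* (log2 fold change 1.59, LRT FDR 0.460). Both were singled out after their values were seen, as was *Spry2*, the 1 gene of the 37 whose groups did not overlap. *Spry2* had 11.3 to 13.2 CPM in *Th-MYCN* and 17.3 to 21.1 CPM in *Th-MYCN/Casp2-/-* tumors. Groups did not overlap for 6.62% of all genes. Other neurotrophin genes were scarce. In the neuroblastomas *Ntf3* had at most 0.231 CPM and *Ntf5* at most 0.183 CPM. No ligand gene of the GDNF family passed the filter in these tumors, and the highest in the neuroblastomas was *Pspn*, the ligand of the fourth co-receptor, at 0.802 CPM.

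The same question in the lymphomas gave no DEG among the members, with 0 of 9 called by the LRT or QLF against 1.44% of all genes tested by the LRT. At an unadjusted p under 0.05 by the LRT there were 3, *Ret*, *Ntrk3* and *Bdnf*, and 1471 of all 14880 genes. The *EμMyc/Casp2-/-* mice were younger at onset (8 to 12 weeks) than the *EμMyc* mice (13 to 19 weeks), and an effect of age cannot be told apart from one of genotype. The median log2 fold change of the members was -0.32, with -0.03 over all genes. *Bdnf*, *Alk* and *Gfra3* are counted in the 9 and in this median, but were at most 0.262, 0.236 and 0.417 CPM in a lymphoma. They passed the filter only through the neuroblastomas and could hardly be called here.

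*Ret* had 0.699, 1.54, 1.10 and 1.06 CPM in *EμMyc* and 11.1, 1.33 and 2.02 CPM in *EμMyc/Casp2-/-* tumors. The first of the tumors without caspase-2, with 57 reads, stood above all others, and the other 2 lay within or just above the range of *EμMyc*. The log2 fold change was 2.07 (95% interval 0.87 to 3.28, LRT FDR 0.0505, QLF FDR 0.298), and 0.61 without that tumor (LRT FDR 1). *Ret* crossed the threshold with RLE scaling (LRT FDR 0.0409), with DESeq2 (adjusted p 0.0400), and without *EμMyc* tumor 2 or *EμMyc/Casp2-/-* tumor 2 or 3.

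*Ntrk3* followed the same tumor, at 4.68 CPM there, with 0.417 and 0 CPM in the other 2 *EμMyc/Casp2-/-* and 0.0787 to 0.524 CPM in *EμMyc* tumors. Its log2 fold change of 2.48 (LRT FDR 0.366) turned to -0.38 without it. *Bdnf* had 5 reads in all over the 4 *EμMyc* tumors and 0 over the 3 *EμMyc/Casp2-/-* tumors, which is too few for a fold (LRT FDR 0.438). *Alk*, with 0 to 3 reads per lymphoma, and *Gfra3*, with 0 to 5, were likewise at the floor.

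*Ngfr* had 6.21, 1.80, 1.18 and 4.56 CPM in *EμMyc* and 3.32, 5.004 and 6.15 CPM in *EμMyc/Casp2-/-* tumors, *Gfra2* had 20.4, 7.95, 1.42 and 25.4 CPM and 10.9, 16.6 and 5.45 CPM, and *Gfra1* had 0.612, 38.2, 5.04 and 10.7 CPM and 1.37, 6.17 and 3.33 CPM. The groups overlapped for each of these 3 genes. *Gfra1* was highest in a single tumor, *EμMyc* tumor 2, and its log2 fold change of -1.90 had a 95% interval from -3.92 to 0.12 (LRT FDR 0.595). *Ntrk2* had at most 3.16 CPM in a lymphoma.

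Some genes listed as targets or feedback inhibitors of the RAS and MAP kinase cascade were called in the lymphomas. Whether the members had a part in their levels was not tested. Of 13 tested targets and feedback inhibitors 6 rose in *EμMyc/Casp2-/-* tumors by the LRT and 0 fell, with 1.14% of all genes called higher. Of the other lists 0 of 12 adaptors, 0 of 6 neurotrophin receptors and co-receptors and 0 of 4 ALK ligands or relatives were called. The lists were chosen with earlier results of these data known, so the count of 6 is not independent of these data. By QLF 0 of these 6 passed. When the 7 lymphomas were fitted alone, the 4 of them that were tested missed the threshold by the LRT (FDR 0.0695 to 0.230), and *Etv4* and *Dusp4* were removed by the filter on low counts. The 6 were the transcription factor genes *Etv4* and *Etv5*, the MAP kinase phosphatase gene *Dusp4*, the Sprouty genes *Spry2* and *Spry4*, and the Spred gene *Spred2*.

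*Etv4* had 0, 0.171, 0.0787 and 0.531 CPM in *EμMyc* and 36.3, 17.0 and 0.404 CPM in *EμMyc/Casp2-/-* tumors (log2 fold change 6.50 ± 1.14 SE, LRT FDR 0.000136, QLF FDR 0.0591). *Dusp4* had 0.612, 0.684, 0.157 and 0 CPM against 14.4, 39.2 and 0.202 CPM (log2 fold change 5.58 ± 1.11 SE, LRT FDR 0.00184). *Spry4* had 0.955 to 3.59 CPM against 28.7, 30.9 and 1.51 CPM. For these 3 genes, *Spry2* and *Etv5*, tumors 1 and 2 without caspase-2 were high and tumor 3 lay within the *EμMyc* range or, for *Spry2*, just under it.

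*Spred2* alone of the 13 tested targets and feedback inhibitors parted the groups, at 5.07 to 7.96 CPM against 11.7, 35.2 and 15.7 CPM (log2 fold change 1.66 ± 0.43 SE, LRT FDR 0.0116). Groups did not overlap for 3.7% of all genes in this comparison. *Spry2* was higher by 2.63 ± 0.61 (SE, LRT FDR 0.00457), *Spry4* by 3.26 ± 0.75 (SE, LRT FDR 0.00491) and *Etv5* by 2.66 ± 0.72 (SE, LRT FDR 0.0247) on the log2 scale. *Etv4* and *Dusp4* were called in 7 of 7 fits that left out a tumor. *Spry2* and *Spry4* lost their calls without *EμMyc/Casp2-/-* tumor 1, *Spred2* without tumor 2, and *Etv5* without either of these or without *EμMyc* tumor 1, 2 or 3. *Etv5* also lost it with sex as a covariate (LRT FDR 0.145), and the other 5 did not. The only female mouse with lymphoma bore *EμMyc/Casp2-/-* tumor 1, so within the lymphomas this setting cannot part sex from that tumor. The number of pathway genes called was 3 without *EμMyc/Casp2-/-* tumor 1 and 8 without *EμMyc/Casp2-/-* tumor 3 or *EμMyc* tumor 4. The receptor genes *Ret* and *Ntrk3* were high in tumor 1 and not in tumor 2.

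**Figure D4:**
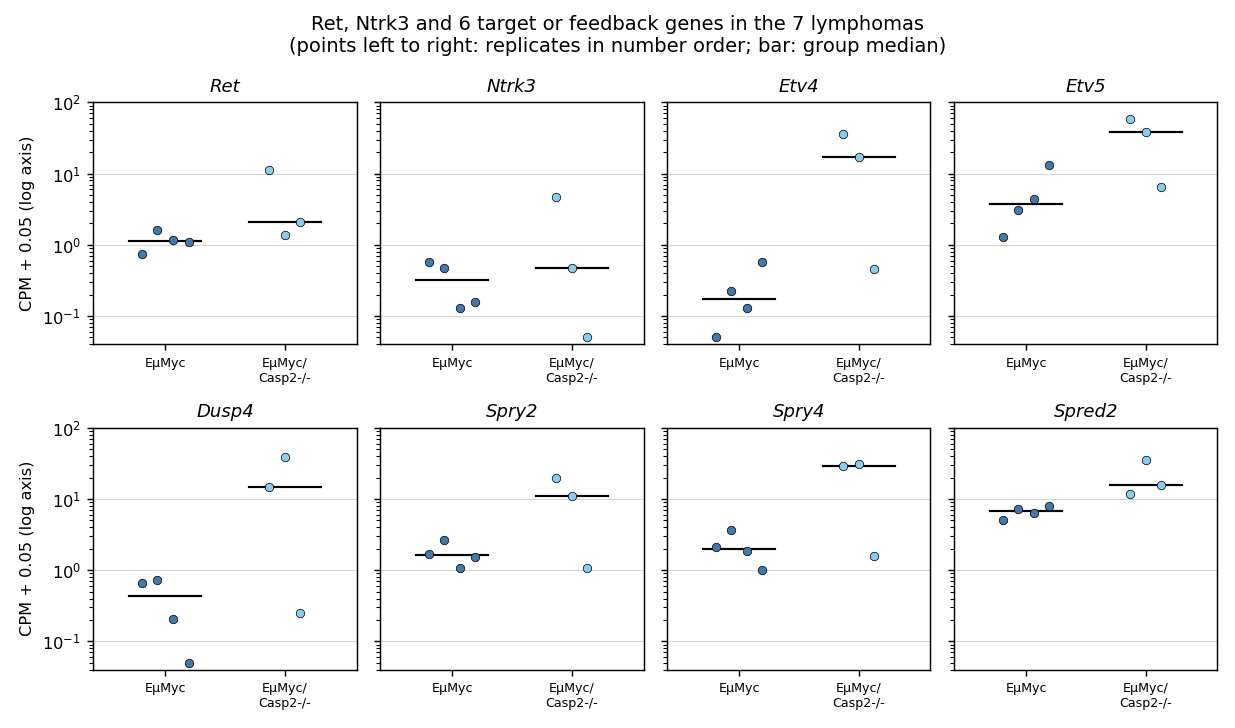
Levels of *Ret*, *Ntrk3* and 6 target or feedback genes in the 7 lymphomas, in CPM on a log axis after adding 0.05. Points run left to right in replicate order and bars mark group medians. *EμMyc/Casp2-/-* tumors 1 and 2 are high for the targets and tumor 3 is not, except for *Spred2*, while *Ret* and *Ntrk3* are high in tumor 1.

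Marker levels of other cell types also differed between these tumors. The summed level of 8 T cell genes was 95.02 to 213 CPM in *EμMyc* tumors and 1358, 242 and 137 CPM in *EμMyc/Casp2-/-* tumors 1 to 3. Of the 8 genes 3 were called up by the LRT and 0 by QLF, with 1.14% of all genes called higher by the LRT. The summed level of 6 lymph node stroma genes was 32.5 to 201 CPM and 364, 250 and 58.4 CPM, with *Ccl21a* at 0 reads throughout and 0 of 4 tested genes called. The 8 B cell genes summed to 2111 to 4975 and 3057 to 3298 CPM. *EμMyc/Casp2-/-* tumor 1 also had the fewest reads of all libraries and came from the only female among the mice with lymphoma. The part of these in the levels of *Ret*, *Ntrk3* and the target genes was not tested.

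Whether the *Casp2* genotype acted differently in the 2 tumor types was tested as an interaction. None of the 9 members was called (0 by the LRT and by QLF, 3 at an unadjusted p under 0.05 by the LRT, as were 1333 of all genes), against 0.914% of all genes. For *Ret* the log2 difference of the fold changes, lymphoma minus neuroblastoma, was 2.65 (95% interval 1.07 to 4.23, LRT FDR 0.0851), and for *Ntrk3* it was 4.72 (95% interval 1.87 to 7.56, LRT FDR 0.0958). Both passed the threshold without *EμMyc/Casp2-/-* tumor 2 or tumor 3, and were at 1.18 and 1.87 without tumor 1. For *Bdnf* the LRT FDR was 0.184, with no reads in 1 of the 4 groups. Of the 37 other pathway genes 1 was called, *Dusp4* (6.15 ± 1.49 SE, LRT FDR 0.0174, QLF FDR 0.318). Its call was lost without *EμMyc* tumor 3, *EμMyc/Casp2-/-* tumor 2, *Th-MYCN* tumor 4 or *Th-MYCN/Casp2-/-* tumor 3 or 4, with 4.84 to 6.70 over all fits that left out a tumor.

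Between tumor types most members were lower in the lymphomas. These comparisons use the same tumors as those of genotype. In *EμMyc* against *Th-MYCN* tumors 6 of 9 members were lower (*Bdnf*, *Ntrk2*, *Ntrk3*, *Ret*, *Gfra3* and *Alk*), 1 was higher (*Gfra1*) and *Ngfr* and *Gfra2* were not called, by the LRT and by QLF alike. Of all genes tested 47.5% were called in this comparison, so 7 of 9 is to be read against that share. The 2 groups did not overlap for 6 members, with 59.4% of all genes. In *EμMyc/Casp2-/-* against *Th-MYCN/Casp2-/-* tumors 5 of 9 were lower (*Bdnf*, *Ntrk2*, *Ret*, *Gfra3* and *Alk*) and 0 higher, with 48% of all genes called. These 5 were also the members without overlap, as were 54.8% of all genes. The median log2 fold change of the members was -5.58 and -2.93, with -0.04 and -0.05 over all genes. *Bdnf*, *Alk* and *Gfra3* were at most 0.262, 0.236 and 0.417 CPM in a lymphoma. *Ntrk3* was over 1 CPM in no lymphoma but *EμMyc/Casp2-/-* tumor 1. These members passed the filter only through the neuroblastomas, so a call of them could hardly be other than lower. Their calls are a description only.

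*Gfra3*, *Alk* and *Bdnf* were at the floor in the lymphomas. *Gfra3* had 6 reads in all over the *EμMyc* and 7 over the *EμMyc/Casp2-/-* tumors, against 1721 to 4759 and 649 to 3863 reads in each neuroblastoma of the matching genotype (log2 fold change -10.61 ± 0.78 and -9.36 ± 0.79, SE). *Alk* had 5 reads over the *EμMyc* tumors (log2 fold change -9.85 ± 0.75 SE, LRT FDR 1.47e-57) and 2 over the *EμMyc/Casp2-/-* tumors, where the pooled level of *Th-MYCN/Casp2-/-* tumors was 1376 times higher (95% counting interval 381 to 11364). *Bdnf* had 5 reads over the *EμMyc* tumors (log2 fold change -8.20 ± 0.74 SE, LRT FDR 9.13e-43). With 0 reads over the *EμMyc/Casp2-/-* tumors, *Bdnf* was at least 785-fold higher in *Th-MYCN/Casp2-/-* tumors, taking 3 reads over the group as the floor.

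The kinases *Ret*, *Ntrk2* and *Ntrk3* were low in the lymphomas but above the floor in most. *Ret* differed by -5.58 ± 0.56 (SE, LRT FDR 9.70e-17) on the log2 scale between *EμMyc* and *Th-MYCN* and by -2.93 ± 0.58 (SE, LRT FDR 1.76e-05) between the *Casp2-/-* tumors. *Ntrk2* differed by -3.11 ± 0.66 and -4.77 ± 0.75 (SE). *Ntrk3* differed by -6.33 ± 1.02 (SE, LRT FDR 5.13e-07) in the first comparison, and its -1.61 ± 1.04 in the second missed the threshold (LRT FDR 0.194) but passed it, at -4.41, without *EμMyc/Casp2-/-* tumor 1.

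*Gfra1*, *Gfra2* and *Ngfr* did not share this pattern. *Gfra1* was higher in *EμMyc* than in *Th-MYCN* tumors by 3.10 ± 0.95 (SE, LRT FDR 0.00504), with overlapping groups, and by 1.82 without *EμMyc* tumor 2, where the call was lost (LRT FDR 0.0827). In the *Casp2-/-* tumors its difference was 0.44 (95% interval -1.58 to 2.47). *Ngfr* differed by 0.21 (95% interval -1.22 to 1.63) and 1.68 (95% interval 0.12 to 3.25, LRT FDR 0.0555), and *Gfra2* by 0.26 (95% interval -0.99 to 1.51) and -1.52 (95% interval -2.87 to -0.16, LRT FDR 0.0575), so the second value of each lay close to the threshold. *Ngfr* passed it without *EμMyc/Casp2-/-* tumor 1 (1.96) or *Th-MYCN/Casp2-/-* tumor 4 (2.60), and *Gfra2* without the latter (-1.71).

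The genes around the members were compared in the same way. Of the 37 other pathway genes tested 22 were lower and 2 higher in *EμMyc* than in *Th-MYCN* tumors, and 20 lower and 6 higher in *EμMyc/Casp2-/-* than in *Th-MYCN/Casp2-/-* tumors. Over all genes 28.5% were lower and 18.9% higher in the first comparison, and 27.6% and 20.5% in the second. Some of the lower genes, such as *Ptn* and *Vgf* (at most 0.586 and 0.303 CPM in a lymphoma), also passed the filter only through the neuroblastomas. Of the 12 adaptors among the 37, 7 and 9 were lower and 0 higher, and of the 13 targets and feedback inhibitors 5 and 2 were lower and 1 and 5 higher. The GDNF family co-receptor gene *Gfra4* differed by -5.29 ± 0.64 and -4.62 ± 0.64 (SE). The p75 partners *Sort1* (-3.71 and -4.10), *Maged1* (-5.44 and -5.54), *Ngfrap1* (-3.95 and -3.39), *Nradd* (-2.90 and -3.06) and the Trk scaffold gene *Kidins220* (-1.69 and -1.96) were lower in both. The growth factor genes *Ptn* (-7.05 and -6.07) and *Mdk* (-4.35 and -4.13), whose products have been described as ALK ligands, and their receptor gene *Ptprz1* (-5.59 and -3.30) were lower too. *Ltk* was higher in the lymphomas, by 3.60 ± 0.71 and 2.16 ± 0.75 (SE).

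Of the adaptors *Shc2* had a log2 fold change of -8.10 ± 0.42 (SE) between the *Casp2-/-* tumors, at 0.845 ± 0.378 CPM (SD, n = 3) against 242 ± 42.3 CPM (SD, n = 4). Between *EμMyc* and *Th-MYCN* it was at 0.992 ± 0.743 against 212 ± 37.6 CPM (SD, n = 4 and 4), a log2 fold change of -7.70. *Dok6*, an adaptor that can bind RET, had 0 reads over the *EμMyc* tumors and a level at least 41.2-fold higher in *Th-MYCN* (floor of 3 reads over the group). *Shc1* was the adaptor with the largest difference the other way, 0.77 and 0.76, under the threshold of fold change. Of the targets *Vgf* was lowest in the lymphomas relative to the neuroblastomas (-8.04 and -7.60), and *Dusp6* (1.65 ± 0.57 SE) and *Etv4* (3.16 ± 1.03 SE) had the largest differences the other way in the first and second comparison.

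Over the 8 neuroblastomas each member was set against 13773 other tested genes by Pearson's r of log2 CPM, as a description with no test. With 8 tumors that share libraries and depth, a search of this size finds high values for any gene, and the 3 highest of each member ran from 0.894 to 0.994. Those most like *Bdnf* were *Tmem160* (r = 0.977), *Cgrrf1* and *Plat*, the gene of tissue plasminogen activator. Those most like *Ntrk2* were *1110012L19Rik* (r = 0.994), *Mmd2* and *Foxp3*, and those most like *Ntrk3* were *Fam159a* (r = 0.984), *Trp53bp2* and *Etv6*. *Ngfr* was most like *Spt1* (r = 0.986), *Abpb* and *Tmem189*, *Ret* most like the glucose transporter gene *Slc2a1* (r = 0.930), *Meis2* and *Tph2*, and *Alk* most like *Rab27a* (r = 0.976), *Sod2* and *Micall1*. The co-receptor gene *Gfra1* was most like *1700012B15Rik* (r = 0.912), *Jag1* and *1110032F04Rik*, *Gfra2* most like *Peg12* (r = 0.994), *6530401N04Rik* and *Tbc1d4*, and *Gfra3* most like *E330013P06* (r = 0.946), then *Cdc23*. No gene was among the 3 most like more than 1 member.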

How the data were processed

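Tumors of 15 mice, each from a different mouse, were analyzed, and groups were taken from the labels. A further *EμMyc/Casp2-/-* tumor that the authors sequenced and left out as an outlier was not analysed here. STAR was the aligner and mm10/GRCm38 the build, and the authors deposited raw read counts of each gene, 1 column without regard to strand and 1 for each strand. The third count column was used, as in the study. Sex came from the study's supplement. The filter on low counts was over 1 CPM in 3 or more tumors. After TMM scaling, edgeR 4.0.16 (R 4.3.3) fitted 1 negative binomial model over the 15 tumors, with 4 group means. DEGs passed an FDR of 0.05 (Benjamini-Hochberg) with a log2 fold change beyond 1 in either direction in the likelihood ratio test (LRT), since the study's tables hold likelihood ratios. The FDR of the quasi-likelihood test (QLF) is given beside it. The scripts were tested on simulated data. Intervals are Wald 95% intervals. CPM values are TMM-scaled, and the prior count of log2 CPM was 2. Exon lengths and places came from GENCODE M21. Alternatives were QLF, DESeq2 1.42.0, RLE scaling, other filters, either-strand counts, sex as covariate, fits of the compared groups alone and leaving out each tumor. All members were named in every comparison. Other pathway genes were named if called between genotypes, and between tumor types if a tested ligand or receptor, or the adaptor and target with the largest change each way. Some of the genes this rule names are not reported here. The members and lists were chosen with earlier results of these data known. The release of the authors' gene annotation is not given in the sources used here.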

Additional observations from a re-analysis of the deposited data

Results flagged for a closer look

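A tumor far from the other 3 of its group was found in 4 of 45 groups of 4 tumors over 15 genes. Chance would give about 1 in 20 groups if CPM values were normally distributed, which was not tested. The 15 genes were the 9 members and the 6 pathway genes called in the lymphomas. *Th-MYCN* tumor 1 had 62.9 CPM of *Ntrk3*, with 9.32 to 11.3 CPM in the others. *Th-MYCN/Casp2-/-* tumor 1 had 10.6 CPM of *Ntrk3*, with 2.95 to 3.49 CPM in the others, and 17.2 CPM of *Ret*, with 39.2 to 43.6 CPM in the others. *Th-MYCN/Casp2-/-* tumor 4 had 3.57 CPM of *Ngfr*, with 0.674 to 0.936 CPM in the others. *Dusp4* was the only member or pathway gene called by the LRT in the interaction of *Casp2* genotype and tumor type. Its log2 difference was 6.15 (LRT FDR 0.0174, QLF FDR 0.318), and its call was lost in some fits that left out a tumor. The *EμMyc/Casp2-/-* group, with 3 tumors, was too small to be examined in this way.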

How the results depend on the processing

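No paired analysis was possible because the labels give each tumor its own mouse and no number shared between groups. The 1 member called in the neuroblastomas became 0 with QLF, either-strand counts or sex as covariate and 2 (*Bdnf* and *Gfra2*) with the compared groups alone, and it was 0 to 1 over the fits that left out a tumor. In the lymphomas the 0 members became 1 (*Ret*) with DESeq2 or RLE scaling and 0 to 1 when a tumor was left out, and the 6 pathway genes became 0 with QLF or the compared groups alone, where 4 of them were tested and *Etv4* and *Dusp4* did not pass the filter, and 3 to 8 when a tumor was left out. In the interaction the members stayed at 0 except when a tumor was left out (0 to 2), and the 1 pathway gene became 0 with QLF, 2 with either-strand counts and 0 to 5 when a tumor was left out. Between tumor types the members called were 7 under each other setting and 6 to 7 without a tumor in *EμMyc* against *Th-MYCN*, and 5 to 7 in both cases between the *Casp2-/-* tumors, and pathway genes stayed within 1.5 times of 24 and 26. The sign turned with either-strand counts for *Gfra3* and *Alk* in the lymphoma genotypes (-0.61 and 0.88) and the interaction (-0.25 and 1.02), and with sex as covariate for *Ngfr* (-0.15, *EμMyc* against *Th-MYCN*) and *Gfra1* (-0.18, between the *Casp2-/-* tumors). The cause was not tested. Leaving out a tumor also turned values that were not called. These were *Alk* (-0.45 to 0.057) between neuroblastoma genotypes, *Ntrk2* (-1.30 to 0.053), *Ntrk3* (-0.38 to 3.06), *Gfra2* (-0.75 to 0.14) and *Alk* (-3.61 to 0.21) between lymphoma genotypes, *Ngfr* (-0.19 to 1.17) and *Gfra2* (-0.15 to 0.65) in *EμMyc* against *Th-MYCN*, *Gfra1* (-0.12 to 0.88) between the *Casp2-/-* tumors, and *Alk* (-3.48 to 0.34) in the interaction. Over all genes QLF called 5 in place of 121 in the neuroblastomas, 21 in place of 215 in the lymphomas and 8 in place of 136 in the interaction. Sex as covariate called 54, 103 and 76, and the compared groups alone 277 and 35 between genotypes. In the neuroblastomas 23.1% of the calls were higher, and 35.0% with the compared groups alone. In the lymphomas 79.1% were, and 66.7% with QLF, 60% with the compared groups alone. In the interaction 79.4% were, and 62.5% with QLF. Depth limits *Alk*, *Bdnf* and *Gfra3* in the lymphomas, where single reads decide the values.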
